A study of Lithobates pipiens with 72 samples.

Results

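A set of 5 transcripts, chosen for digestion and gut signalling, was followed in whole leopard frog (Rana pipiens) tadpoles exposed to munition compounds. They were the transcripts named maltase-glucoamylase, intestinal-like (MGAM, Rana_pipiens_Transcript_140800), sodium/glucose cotransporter 1-like (SGLT1, Rana_pipiens_Transcript_410897), fabp2 protein (FABP2, the intestinal fatty acid-binding protein, Rana_pipiens_Transcript_494459), transmembrane 4 L6 family member 20 (TM4SF20, Rana_pipiens_Transcript_065522) and fibroblast growth factor 19 (FGF19, Rana_pipiens_Transcript_507190). They were chosen by name, with earlier results of these data known, and these 5 names each had 1 row among the 19128 transcripts of the deposited tables. The names are those of the closest Xenopus protein, and the weakest of the 5 matches, that of FABP2, had an E-value of 4.14e-71.

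The brush border is the carpet of microvilli on the absorptive cells of the small intestine, where the last steps of digestion and the first steps of uptake take place. MGAM is a membrane-bound glucosidase there that releases glucose from starch fragments, SGLT1 carries glucose into the cell together with sodium, and FABP2 binds long-chain fatty acids inside the cell. TM4SF20 is a membrane protein with 4 spans that in human cells restrains the activation of a membrane-bound transcription factor, and FGF19 is known in mammals as a hormone that bile acids induce in the ileum and that lowers bile acid synthesis in the liver. In mammals SGLT1 is also made in the kidney tubule, and in chick and zebrafish embryos FGF19 is made in developing nervous tissue.

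Tadpoles aged 7 to 10 d when exposure began spent 96 h in water holding TNT (trinitrotoluene, a nitroaromatic explosive) at 1.5, 2.3 or 3.4 mg/L, NQ (nitroguanidine) at 30, 150, 750 or 3750 mg/L, MeNQ (methylnitroguanidine, NQ with an added methyl group) at 34, 170, 851 or 4225 mg/L, or IMX-101 (an explosive mixture whose components include NQ and NTO) at 10, 20 or 40 mg/L, or in dechlorinated tap water as the control of each experiment. All of these doses are nominal, TNT entered the water from a dried acetone coating of the vessel, IMX-101 solutions were adjusted in pH, the tadpoles came from a commercial supplier's eggs, and food was given at the start and on day 2. Each of the 18 groups had 4 libraries (A to D), and each library was the pooled whole-body RNA of 5 tadpoles from 1 beaker, so the replicate is the beaker. In whole-body RNA, fewer cells of a type and less RNA per cell cannot be told apart.

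Library totals ran from 1.67 M counts (TNT control A) to 21.7 M. CPM (counts over the scaled total of a library, times 1 M) is the unit of all levels, and since the tables give no transcript lengths they are compared between groups and not between genes. A change is a log2 fold change against the control of the same exposure ± its standard error with 4 libraries per group. A gene is said to have risen or fallen where its p in the quasi-likelihood test of edgeR, adjusted over all transcripts tested by the Benjamini-Hochberg method, was under 0.05. The IMX-101 control and 10 mg/L libraries were sequenced in 2 runs (11.3 to 18.01 M counts). Those of 20 and 40 mg/L were sequenced in 1 run on another lane (5.57 to 7.70 M). In the contrasts of 20 or 40 mg/L with control, and in the IMX-101 slope, dose and run set cannot be told apart.

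The libraries held intestinal RNA. Of 11 markers of the absorptive epithelium, 8 had a row and 1 of these, ANPEP, was near 0. The summed level of the 5 that are not among the genes under study averaged 503 ± 31.2 CPM (SD, n = 4) at 3.4 mg/L TNT and 593 ± 64.8 CPM in TNT controls. Most of that sum is villin 1, the actin bundler of microvilli, at 364 ± 19.7 CPM at 3.4 mg/L and 383 ± 45.9 CPM in controls. The caudal factors CDX1 and CDX2, which set intestinal identity, were present as well, at 34.0 ± 1.34 and 36.3 ± 5.05 CPM at 3.4 mg/L and at 43.4 ± 5.96 and 48.3 ± 5.72 CPM in controls.

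TNT lowered all 5 genes. At 3.4 mg/L their log2 changes ran from -0.92 for SGLT1 to -5.35 for FGF19, with a median of -1.68, while the median of all 12648 transcripts tested was 0.06. The FGF19 value ran from -8.01 to -4.93 when 1 library was left out, the lowest without library A of 3.4 mg/L, which holds all 3 counts of that group. Of all transcripts, 12% were called at this dose, and 5.61% were called lower. In all 5 genes every library at 3.4 mg/L lay below every control library, which held for 7.52% of all transcripts. Since the 5 were chosen with earlier results of these data known, these shares are a description and not a test of the set. The calls of all 5 held when any 1 of the 8 libraries was left out.

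**Figure D1:**
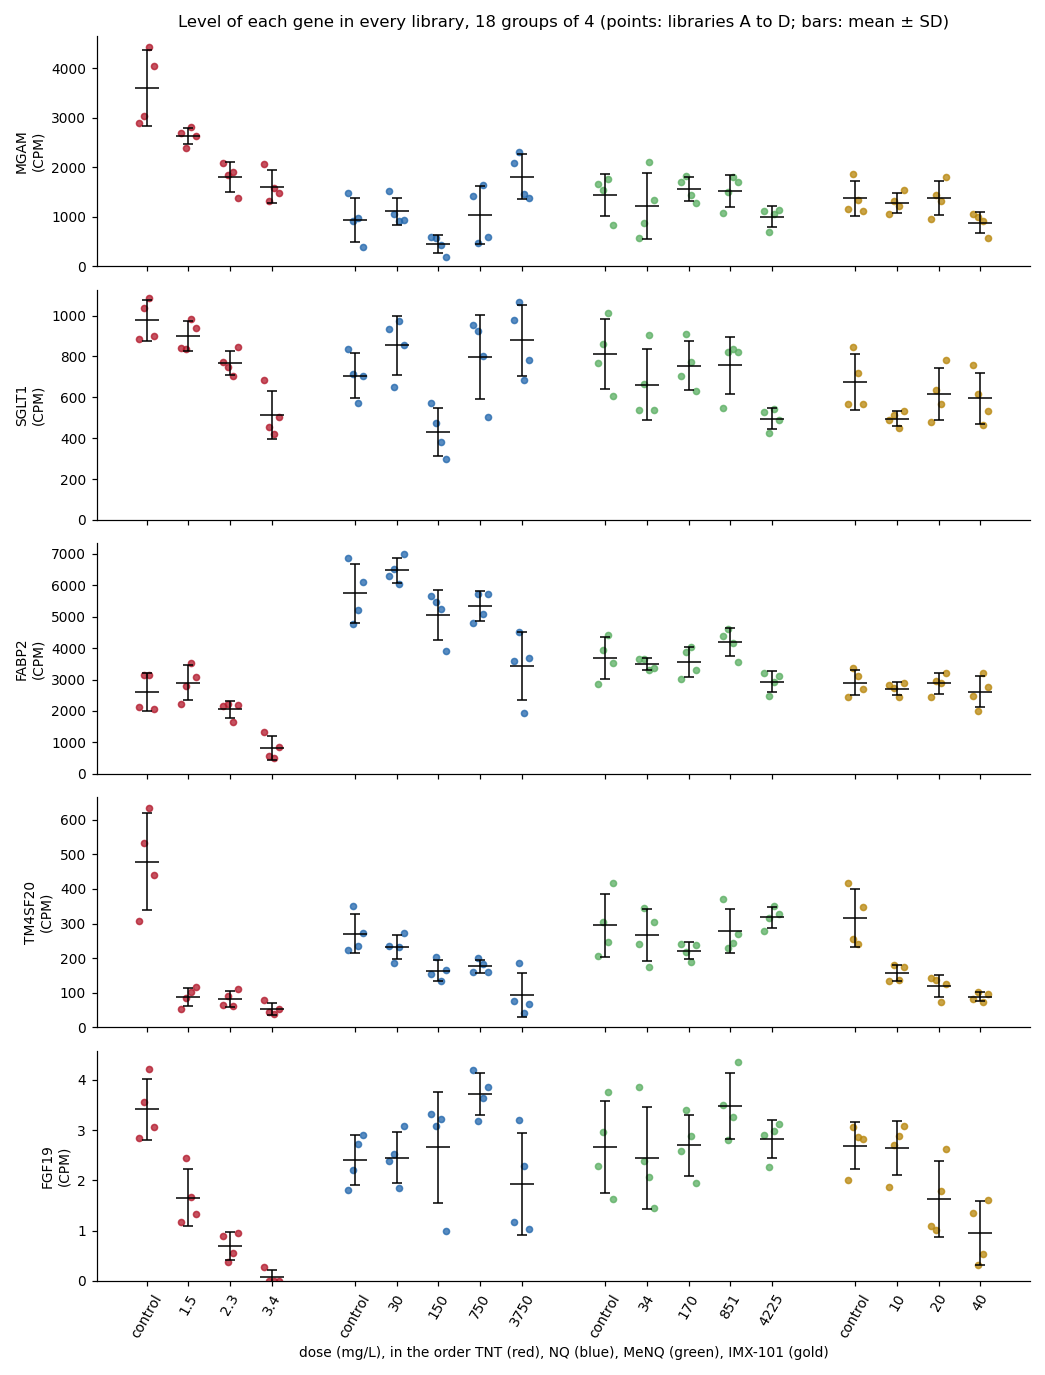
Level of each of the 5 genes in every library, with 1 panel per gene, CPM on the vertical axis from 0, and the 18 groups along the horizontal axis in order of dose within TNT, NQ, MeNQ and IMX-101. Points are libraries A to D and black marks the mean ± SD of 4 libraries, and TM4SF20 and FGF19 average 54.3 and 0.0719 CPM at 3.4 mg/L TNT and 479 and 3.42 CPM in TNT controls.

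MGAM, which finishes starch digestion, fell at both upper TNT doses. MGAM stood at 2069, 1315, 1572 and 1485 CPM in libraries A to D at 3.4 mg/L, against 2887, 3032, 4437 and 4051 CPM in the controls. The highest exposed library was thus well under the lowest control, and the change was -1.15 ± 0.16 (adjusted p = 0.000219, edgeR). At 2.3 mg/L the 4 libraries had 2090, 1849, 1912 and 1386 CPM, again all below the controls, and MGAM fell by 0.99 on the log2 scale (SE 0.16, adjusted p = 0.00138). At 1.5 mg/L they had 2691, 2398, 2805 and 2632 CPM, a narrow band just below the lowest control, and the change of -0.44 ± 0.16 did not pass (adjusted p = 0.207). MGAM passed at 2.3 and 3.4 mg/L and not at 1.5 mg/L. Its slope, the fitted log2 change per dose step with the control as the lowest step, was -0.40 ± 0.05 (adjusted p = 6.22e-05).

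SGLT1, the sodium-driven glucose carrier, passed the test at 3.4 mg/L and at no lower TNT dose. Its libraries had 684, 453, 418 and 505 CPM at 3.4 mg/L, against 883, 1038, 1087 and 899 CPM in the controls. The groups did not overlap, and SGLT1 fell by 0.92 on the log2 scale (SE 0.13, adjusted p = 0.000291). At 2.3 mg/L it had 772, 747, 704 and 847 CPM (change -0.35 ± 0.13, adjusted p = 0.174), and at 1.5 mg/L 841, 837, 982 and 939 CPM (change -0.11 ± 0.13, adjusted p = 0.864). At 2.3 mg/L all 4 libraries lay below all controls, and at 1.5 mg/L the groups overlapped, with libraries A and B below the lowest control. Over the dose steps SGLT1 had a slope of -0.30 ± 0.05 (adjusted p = 0.000558).

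FABP2, the fatty acid carrier, likewise passed at 3.4 mg/L and at no lower dose. It stood at 1321, 558, 487 and 862 CPM at 3.4 mg/L, against 2122, 3134, 3142 and 2052 CPM in the controls. Library A was the highest of the exposed libraries and still under the lowest control, and FABP2 fell by 1.68 on the log2 scale (SE 0.27, adjusted p = 0.000848). At 2.3 mg/L the libraries had 2153, 2221, 1654 and 2178 CPM and at 1.5 mg/L 2211, 2809, 3527 and 3066 CPM. Both of these groups overlapped the controls, and the changes of -0.34 ± 0.27 and 0.16 ± 0.27 did not pass (adjusted p = 0.654 and 0.933, edgeR). FABP2 also had a falling slope, -0.55 ± 0.13 (adjusted p = 0.00889), which did not pass with log10 dose in place of dose steps (adjusted p = 0.143). Library A at 3.4 mg/L was the highest of the 4 exposed libraries in MGAM, SGLT1, FABP2 and TM4SF20 alike.

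TM4SF20, the membrane protein of the L6 family, fell at all 3 TNT doses, the lowest included. Its libraries had 54.1, 83.4, 100.7 and 116 CPM at 1.5 mg/L, against 307, 534, 635 and 440 CPM in the controls. The highest library at 1.5 mg/L was well below the lowest control, and the gene fell by 2.42 on the log2 scale (SE 0.30, adjusted p = 0.000354). At 2.3 mg/L it had 63.6, 89.6, 61.9 and 111 CPM and at 3.4 mg/L 78.9, 45.7, 39.4 and 53.2 CPM, changes of -2.55 ± 0.30 (adjusted p = 9.68e-05) and -3.13 ± 0.31 (adjusted p = 1.15e-05). No library of any TNT dose reached a control, and the means of neighbouring doses, 88.5 ± 26.5, 81.6 ± 23.6 and 54.3 ± 17.4 CPM, lay far closer to each other than to the control mean of 479 ± 140 CPM. Its slope over the TNT series was -0.99 ± 0.14 (adjusted p = 0.000132). Of the 5 genes, TM4SF20 was the only one called at 1.5 mg/L, where 2.76% of all transcripts were called and 1% were called lower, and the median change of the 5 was -0.44 against 0.04 over all transcripts. MGAM and TM4SF20 were the 2 called at 2.3 mg/L, where 5.39% of all transcripts were called and 2.34% were called lower, with medians of -0.99 and 0.03. All 5 slopes were called, against 11.5% of all transcripts in either direction and 5.4% of all transcripts downward. These shares too only describe a set chosen with earlier results of these data known.

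FGF19, a gut hormone in mammals, was scarce everywhere and reached a count of 0 in 3 libraries at 3.4 mg/L. It had 0.288, 0, 0 and 0 CPM in libraries A to D at 3.4 mg/L, against 2.85, 3.56, 4.21 and 3.06 CPM in the controls. These levels rest on 3 counts over the 4 exposed libraries and 105 counts over the 4 controls, of which control A, the shallowest library, gave 5. A count of 0 allows up to 3 counts, or 0.208, 0.293 and 0.330 CPM in libraries B to D, so these libraries cannot be set apart from library A, and all 4 are below the controls. Scaled for depth, the sum was 52.5-fold lower at 3.4 mg/L, with a 95% counting interval of 17.5 to 259 (exact binomial, counting error only), and FGF19 was called lower by edgeR (adjusted p = 0.00287). At 2.3 mg/L it had 0.894, 0.378, 0.549 and 0.955 CPM, again below all controls. That was 24 counts in all, 5.36-fold fewer than in controls after scaling (95% counting interval 3.41 to 8.73), and edgeR's adjusted p was 0.188 where DESeq2's was 1.19e-05. At 1.5 mg/L it had 1.18, 2.46, 1.66 and 1.33 CPM, all under the lowest control, with 72 counts in all and an adjusted p of 0.741 (edgeR). FGF19 had the steepest slope of the 5, -1.63 ± 0.33 (adjusted p = 0.00292).

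**Figure D2:**
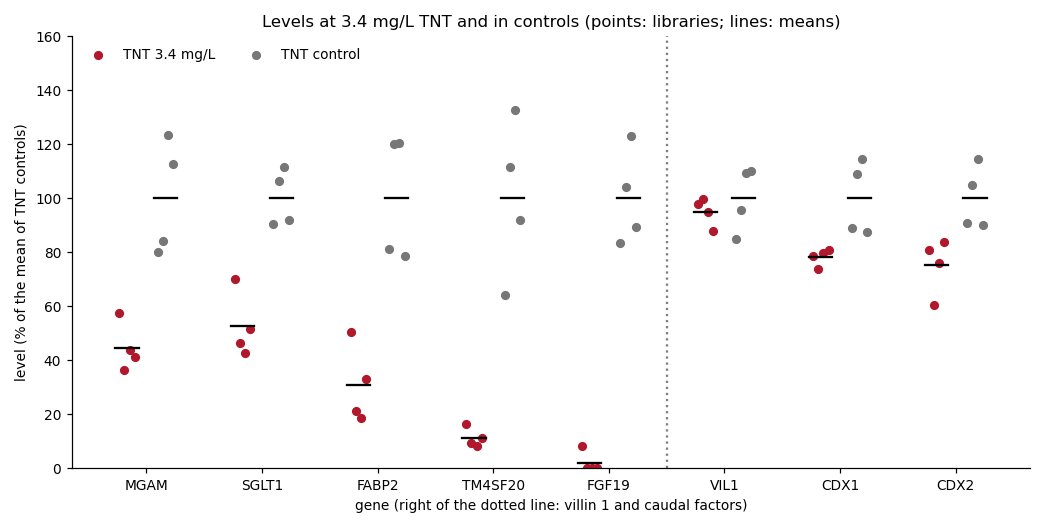
Level of the 5 genes and, right of the dotted line, of villin 1 (VIL1), CDX1 and CDX2 in each library, as a percent of the mean of the TNT controls on a vertical axis from 0. Points are libraries at 3.4 mg/L TNT (red) and in TNT controls (grey), lines are means of 4, and the red points lie below all grey points in each of the 5 genes, CDX1 and CDX2, and among them for villin 1.

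Villin 1, the structural marker of the brush border, was not called. It had a change of -0.07 ± 0.08 at 3.4 mg/L TNT (adjusted p = 0.734, edgeR), and its slope did not pass either (adjusted p = 0.758). CDX2 fell by 0.40 (SE 0.12, adjusted p = 0.0448), a call that held in 3 of the 8 fits that left out 1 library, and CDX1 had a log2 difference of -0.35 (adjusted p = 0.158). For both CDX genes all 4 libraries at 3.4 mg/L lay below all 4 controls, with at most 80.9% of the control mean at 3.4 mg/L and at least 87.5% in controls for CDX1, and at most 83.9% and at least 89.9% for CDX2. Marker sums of other cell types stood at different levels at this dose as well. Summed markers of the exocrine pancreas (5 of 10 matched to a row by name) ran from 5279 to 9062 CPM at 3.4 mg/L. In controls they ran from 8442 to 11248 CPM, and the mean at 3.4 mg/L was 69.3% of control. Those of the liver (8 of 11, with HPX near 0) ran from 2634 to 2940 CPM at 3.4 mg/L and from 2643 to 3908 CPM in controls (85.2%), and those of goblet and mucus cells (6 of 8) from 930 to 1116 CPM at 3.4 mg/L and from 1031 to 1407 CPM in controls (83.2%). The goblet sum rests mostly on AGR2 and FCGBP. The MUC2 row, named mucin-2-like and the highest of 5 rows matched to MUC2, had 4.14 ± 1.39 CPM at 3.4 mg/L and 29.1 ± 14.6 CPM in controls. By gene, edgeR called 2 of 4 tested absorptive markers other than the 5 genes lower and none higher (median -0.38). It called 3 of 6 goblet markers lower and none higher (median -0.73), and 2 of 5 pancreas markers lower (median -0.60). Among liver markers 2 of 7 were called lower and 2 higher (median 0.26). Of the kidney tubule markers 1 of 7 was called lower and 1 higher (median 0.01), and of general epithelium markers 1 of 5 lower (median -0.30). Beside these counts, 12% of all transcripts were called at this dose and 5.61% were called lower. Markers of general epithelium (5 of 7) ran from 1762 to 1960 CPM at 3.4 mg/L and from 2079 to 3573 CPM in controls (68.4%). Among the sums of other cell types, this and the pancreas sum were the lowest against control. The pancreas marker CEL was matched to no row by its written name. A transcript named Cel-prov protein, with a mean of 3568 CPM over 72 libraries, is outside all pancreas sums and counts given here. The full absorptive sum, which holds MGAM, SGLT1 and FABP2, stood at 44.1% of control, and without them at 84.7%. Markers of the kidney tubule (9 of 12, with AQP2 near 0) ran from 431 to 585 CPM at 3.4 mg/L and from 418 to 526 CPM in controls (105%), as large as in the controls. Smoothelin, the only one of 7 markers of gut wall muscle with a row, stood at 18.7 to 43.6 CPM at 3.4 mg/L and at 5.00 to 17.98 CPM in controls. It was called higher by edgeR, with a log2 change of 1.54. The part of the pancreas, liver, goblet, general epithelium and muscle sums in the changes of the 5 genes was not tested.

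Other genes of the brush border were called lower as well at 3.4 mg/L TNT, with the largest counts among its enzymes and the genes of fat absorption. The lists below hold the 5 genes themselves, and together they name 127 genes of which 70 had a row. They were written with earlier results of these data known, and at this dose 12% of all transcripts were called and 5.61% were called lower. Of 9 brush border hydrolases tested, 5 fell and none rose, with a median change of -0.97 against 0.06 over all transcripts. Besides MGAM they included angiotensin-converting enzyme (ACE), a peptidase, at 473 ± 148 CPM at 3.4 mg/L and 802 ± 53.8 CPM in controls (-0.75 ± 0.16, adjusted p = 0.00617), and the metalloprotease meprin A subunit beta (MEP1B) at 68.9 ± 24.7 and 119 ± 15.4 CPM (-0.78 ± 0.19, adjusted p = 0.0145). Lactase (LCT), which splits milk sugar in mammals, had 82.4 ± 30.9 CPM at 3.4 mg/L and 151 ± 28.3 CPM in controls (-0.87 ± 0.23, adjusted p = 0.0233). The LCT call held in 3 of the 8 fits without 1 library and those of MEP1B and RBP2 in 7 of 8. Of 10 absorptive transporters, 3 fell and none rose, and the list's median was -0.04. The 3 were SGLT1, the fructose carrier SLC2A5, at 80.2 ± 22.2 CPM at 3.4 mg/L and 156 ± 26.7 CPM in controls (-0.95 ± 0.20, adjusted p = 0.00555), and the sodium/proton exchanger SLC9A3, at 81.7 ± 13.9 and 137 ± 7.45 CPM (-0.74 ± 0.12, adjusted p = 0.000745).

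Genes of fat absorption fell in 5 of 10 tested and rose in none, with a median of -0.58. FABP2 was joined by CD36, a fatty acid receptor, which had 68.0 ± 25.4 CPM at 3.4 mg/L and 243 ± 54.4 CPM in controls (-1.83 ± 0.31, adjusted p = 0.00112). MOGAT2, which rebuilds triglyceride in the absorptive cell, had 21.1 ± 7.09 CPM at 3.4 mg/L and 40.9 ± 4.65 CPM in controls (-0.95 ± 0.21, adjusted p = 0.0084), and RBP2, the intestinal retinol carrier, had 13.997 ± 2.78 and 22.1 ± 3.92 CPM (-0.66 ± 0.16, adjusted p = 0.0142). Of 8 genes of microvillus structure, 1 fell, beside 5.61% of all transcripts called lower, and the list's median was -0.31. The gene was MYO1A, the brush border myosin (495 ± 64.2 CPM at 3.4 mg/L and 635 ± 73.7 CPM in controls, -0.35 ± 0.10, adjusted p = 0.0412, edgeR). That call held in 2 of the 8 fits without 1 library. Of 9 intestinal transcription factors, 2 fell, CDX2 and HNF4G, a nuclear receptor of the gut lining, which had 34.4 ± 8.22 CPM at 3.4 mg/L and 65.6 ± 19.2 CPM in controls (-0.93 ± 0.19, adjusted p = 0.00495), and the list's median was -0.37.

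FGF19 is not on the list of gut hormone genes. The organs that the RNA of FGF19 and of TM4SF20 came from in these whole-body libraries were not tested. Of 6 genes of gut hormones and enteroendocrine cells, edgeR called none at 3.4 mg/L TNT and DESeq2 called 1, and the list's median was 0.12. Peptide YY, a hormone of the lower gut, stood at 70.4 ± 5.14 CPM at 3.4 mg/L and 62.0 ± 6.90 CPM in controls (adjusted p = 0.229, edgeR). Among 6 genes of the FGF19 and bile acid axis, FGF19 fell and beta-klotho (KLB), the co-receptor through which FGF19 signals, rose, with 38.2 ± 8.96 CPM at 3.4 mg/L and 21.7 ± 6.20 CPM in controls (0.83 ± 0.23, adjusted p = 0.0303, kept in 4 of the 8 fits without 1 library), and the list's median was -0.13. FABP6, the ileal bile acid carrier, stood at 186 ± 24.6 and 264 ± 42.4 CPM (-0.50, adjusted p = 0.0766). TM4SF20 was the only one of 6 TM4SF genes that could be tested.

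**Figure D3:**
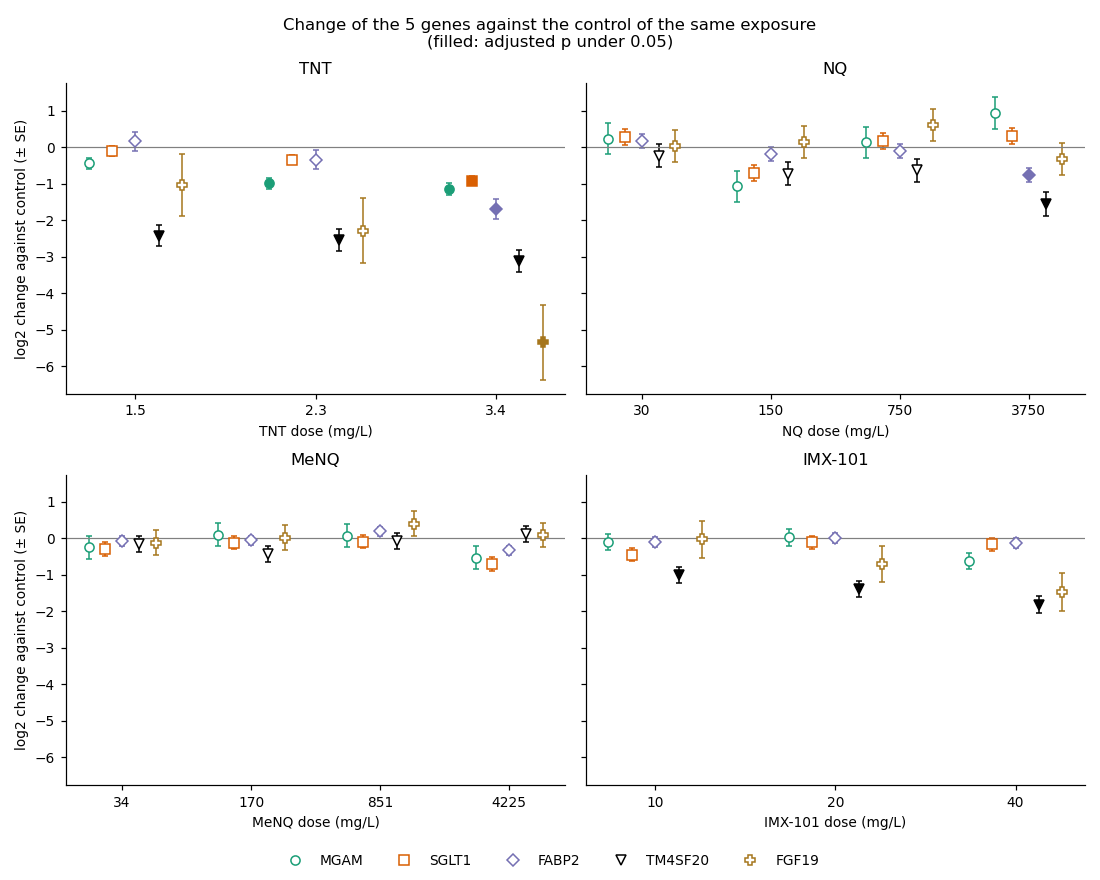
Change of each gene at each dose against the control of its exposure, as log2 fold change ± SE (vertical axis, same scale in the 4 panels) over dose (horizontal axis). Markers differ by gene and filled markers had an adjusted p under 0.05: all 5 genes at 3.4 mg/L TNT, MGAM and TM4SF20 at 2.3 mg/L TNT, TM4SF20 alone at 1.5 mg/L TNT and at all 3 IMX-101 doses, and FABP2 and TM4SF20 at 3750 mg/L NQ.

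NQ lowered TM4SF20 and FABP2 at its highest dose and no other of the 5. TM4SF20 stood at 75.6, 186, 40.0 and 68.7 CPM in libraries A to D at 3750 mg/L, against 224, 352, 235 and 273 CPM in the NQ controls. Library B stood well above the other 3 exposed libraries and still below every control, and the gene fell by 1.56 on the log2 scale (SE 0.32, adjusted p = 0.0113). FABP2 had 3597, 4518, 1947 and 3692 CPM at 3750 mg/L, against 6875, 4777, 5209 and 6108 CPM in the controls. These groups did not overlap either, and FABP2 fell by 0.76 on the log2 scale (SE 0.19, adjusted p = 0.0315). The FABP2 call held in 2 of the 8 fits without 1 library (adjusted p up to 0.1002), and neither call held with only the 8 libraries compared (adjusted p = 0.177 for FABP2 and 0.120 for TM4SF20). At this dose 4.48% of all transcripts were called, and the median change of the 5 genes was -0.33 against 0.02.

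MGAM and SGLT1 had higher means at 3750 mg/L NQ than in controls, without passing the test. MGAM had 2086, 2310, 1452 and 1389 CPM at 3750 mg/L, against 1484, 920, 968 and 385 CPM in the controls (0.93 ± 0.43, adjusted p = 0.287). SGLT1 averaged 879 ± 175 CPM at 3750 mg/L and 707 ± 109 CPM in controls, and FGF19 1.93 ± 1.02 and 2.41 ± 0.50 CPM, and both overlapped their controls. Of the 8 lists, none but those that hold FABP2 and TM4SF20 had a gene called by edgeR at this dose. The median changes of the hydrolases, the transporters and the microvillus genes were 0.46, 0.71 and 0.63, and that of the fat absorption genes was -0.35. Summed liver markers ran from 7826 to 15768 CPM at 3750 mg/L and from 4933 to 8260 CPM in controls, and goblet markers from 1605 to 2160 CPM and from 1957 to 3481 CPM. Of these, edgeR called 1 of 6 liver markers higher, and 2 of 6 goblet markers lower and 1 higher, beside 4.48% of all transcripts called. Pancreas markers stood at 125% of control and the absorptive markers other than the 5 genes at 107.9%, and the part of all 4 sums in these changes was not tested.

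At 150 mg/L NQ, 3 of the 5 genes were lower at an unadjusted p under 0.05. Neither edgeR nor DESeq2 called any of the 5, and edgeR called 0.0154% of all transcripts. Over all transcripts, 979 of 12969 had an unadjusted p under 0.05. The median change of the 5 was -0.71 against 0.01 over all transcripts. MGAM had 582, 566, 435 and 196 CPM at 150 mg/L (-1.08 ± 0.43, adjusted p = 0.573), SGLT1 573, 473, 380 and 300 CPM (-0.71 ± 0.22, adjusted p = 0.403) and TM4SF20 155, 204, 133 and 165 CPM (-0.73 ± 0.32, adjusted p = 0.613). MGAM and SGLT1 overlapped their controls and TM4SF20 did not. Pancreas markers ran from 2484 to 3478 CPM at 150 mg/L and from 4783 to 9255 CPM in controls (41.1% of control), and the absorptive markers other than the 5 genes from 439 to 529 CPM and from 470 to 713 CPM (80.2%). The part of either in these levels was not tested. At 750 mg/L MGAM (1036 ± 586 CPM) and SGLT1 (796 ± 206 CPM) overlapped their controls, while TM4SF20 had 160, 202, 183 and 160 CPM, all below its controls, without passing the test (-0.63 ± 0.32, adjusted p = 0.759, edgeR).

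At 30 and 750 mg/L NQ edgeR called none of the 5 genes, none passed at an unadjusted 0.05, DESeq2 called none, and 0% of all transcripts were called by edgeR. Over all transcripts at those doses, 1057 and 875 passed without adjustment, and DESeq2 called 88 at 750 mg/L and somewhat more at 30 mg/L. For FGF19 all libraries at 750 mg/L lay above all controls, with means of 3.72 ± 0.42 and 2.41 ± 0.50 CPM. That was 152 counts against 103, or 1.51-fold higher after scaling (95% counting interval 1.17 to 1.95). The difference was not called (adjusted p = 0.886, edgeR). The NQ slope was called for TM4SF20 alone, against 1.23% of all transcripts, at -0.34 ± 0.07 per step (adjusted p = 0.0314). Its group means over the series were 271 ± 57.6 CPM in controls and 232 ± 35.8, 164 ± 29.6, 176 ± 20.1 and 92.5 ± 64.1 CPM at 30, 150, 750 and 3750 mg/L. The slope was not called without control B or without library A, C or D of 3750 mg/L (adjusted p up to 0.0947). FABP2, with means of 5742 ± 937 CPM in controls and 6477 ± 406, 5065 ± 791, 5335 ± 473 and 3439 ± 1077 CPM at those doses, had a slope of -0.18 ± 0.05 (adjusted p = 0.0921).

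MeNQ moved none of the 5 genes past the test at any dose or as a slope. The shares of all transcripts called were 0%, 0.156%, 0.437% and 0.393% at 34, 170, 851 and 4225 mg/L and 0.0889% for the slope. At 34 mg/L 652 transcripts passed without adjustment and DESeq2 called 71. The gene nearest to a call was SGLT1 at 4225 mg/L, with 529, 425, 541 and 490 CPM in libraries A to D, against 767, 863, 1014 and 608 CPM in the MeNQ controls. All 4 exposed libraries lay below all 4 controls, and the change of -0.70 ± 0.18 had an adjusted p of 0.136 with edgeR and 0.0123 with DESeq2. FABP2 had 3217, 2469, 2916 and 3123 CPM at 4225 mg/L, against 2853, 3952, 4424 and 3512 CPM in the controls (-0.32 ± 0.13, adjusted p = 0.375). TM4SF20, which was called lower in the TNT, NQ and IMX-101 series, had 278, 317, 350 and 327 CPM at 4225 mg/L, against 207, 305, 247 and 419 CPM in the controls, and the groups overlapped fully. MGAM averaged 1001 ± 207 CPM at 4225 mg/L and 1448 ± 423 CPM in controls, and FGF19 2.82 ± 0.38 and 2.66 ± 0.92 CPM.

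At the lower MeNQ doses edgeR called none of the 5, DESeq2 called none, and none passed at an unadjusted 0.05. FGF19 at 851 mg/L overlapped its controls, with 139 counts against 176, or 1.37-fold higher after scaling (95% counting interval 1.09 to 1.72). At 4225 mg/L 2 of the 5, SGLT1 and FABP2, had an unadjusted p under 0.05, as had 1352 of 13496 transcripts, and the median change of the 5 was -0.32 against -0.01 over all transcripts. No gene of the 8 lists was called by edgeR at 4225 mg/L, while DESeq2 called 1 transporter and 1 gene of fat absorption, and apart from TM4SF20 the list medians ran from -0.21 to 0.13. Kidney tubule markers ran from 346 to 569 CPM at 4225 mg/L and from 515 to 719 CPM in controls, goblet markers from 1652 to 2533 CPM and from 2742 to 3318 CPM, and the absorptive markers other than the 5 genes from 627 to 752 CPM and from 723 to 864 CPM. By gene, edgeR called 1 of 8 kidney tubule markers lower, and none of 6 goblet or 4 absorptive markers, beside 0.393% of all transcripts called. The part of these sums in the SGLT1 levels was not tested.

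NQ and MeNQ were given at the same molar doses, so their responses could be set against each other at 0.3, 1.4, 7.2 and 36 mmol/L. Of the 5 genes at the 4 doses, the difference between responses passed for 1 gene at 1 dose. At 36 mmol/L, TM4SF20 stood at 318 ± 29.9 CPM with MeNQ and 295 ± 91.8 CPM in the MeNQ controls, and at 92.5 ± 64.1 CPM with NQ and 271 ± 57.6 CPM in the NQ controls. The MeNQ response minus the NQ response was 1.66 ± 0.40 on the log2 scale (95% interval 0.85 to 2.46, adjusted p = 0.0379 over 14068 transcripts, edgeR), with 0.626% of all transcripts called. That call held in 4 of the 16 fits without 1 library (adjusted p up to 0.117 in the others). The experiments were separate, with their own controls.

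MGAM and SGLT1 had intervals at 36 mmol/L that excluded 0 before adjustment, on the opposite side. For MGAM the MeNQ response minus the NQ response was -1.48 (95% interval -2.60 to -0.36, adjusted p = 0.226), and for SGLT1 it was -1.02 (-1.63 to -0.42, adjusted p = 0.106). For FABP2 the interval ran from -0.06 to 0.88 and for FGF19 from -0.65 to 1.46, so differences of those sizes between the compounds are not excluded. At 0.3, 1.4 and 7.2 mmol/L edgeR called none of the 5 differences, DESeq2 called none, and 0, 1 and 0 passed without adjustment, as did 1093, 1353 and 1200 of 14068 transcripts, while 0.0213%, 0.128% and 0.114% of all transcripts were called. The 1 was MGAM at 1.4 mmol/L, at 1.19 (95% interval 0.07 to 2.30, adjusted p = 0.477), the dose at which its NQ libraries were low.

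**Figure D4:**
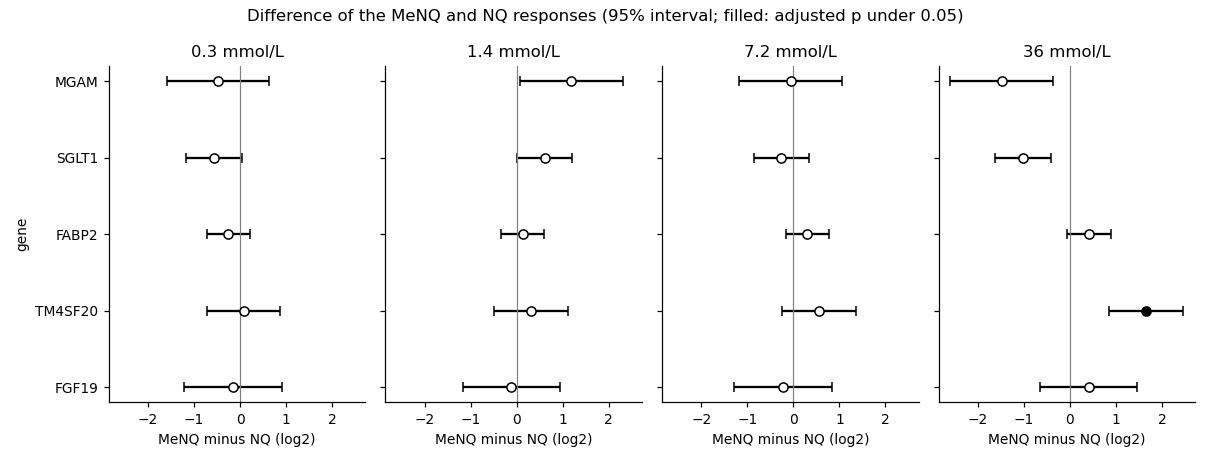
Difference of the MeNQ and NQ responses (MeNQ minus NQ, log2) for each gene at the 4 matched molar doses, with 95% intervals as bars on a shared horizontal scale. Filled points had an adjusted p under 0.05, which was the case for TM4SF20 at 36 mmol/L, at 1.66.

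In the IMX-101 series TM4SF20 was called lower at each dose, and no other of the 5 was called. TM4SF20 had 134, 181, 138 and 174 CPM in libraries A to D at 10 mg/L, against 418, 255, 241 and 348 CPM in the IMX-101 controls. It had 143, 136, 73.6 and 124 CPM at 20 mg/L and 83.3, 102, 74.1 and 95.3 CPM at 40 mg/L. All 12 exposed libraries lay below the 4 controls. The changes were -1.01 ± 0.21 at 10 mg/L (adjusted p = 0.0375), -1.38 ± 0.22 at 20 mg/L (adjusted p = 0.00258) and -1.81 ± 0.22 at 40 mg/L (adjusted p = 0.000146), with a slope of -0.58 ± 0.07 over the series (adjusted p = 8.73e-05). The call at 10 mg/L, the dose that shares its run set with the controls, held in 1 of the 8 fits without 1 library, that without control C (adjusted p up to 0.135 in the others). With only the 8 libraries compared, the 10 mg/L call did not hold (adjusted p = 0.0926, edgeR). The calls at 20 and 40 mg/L held in all fits without 1 library. For these 2 doses and for the slope, dose and run set cannot be told apart.

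These calls stood against 0.989%, 5.21% and 7.51% of all transcripts called at 10, 20 and 40 mg/L and 7.73% for the slope. The median change of the 5 genes was -0.09, -0.11 and -0.61 at these doses, against -0.02, -0.04 and -0.05 over all transcripts. Within the run set of the 2 upper doses, TM4SF20 at 40 mg/L differed from 20 mg/L by -0.43 ± 0.21 (adjusted p = 0.537), and none of the 5 genes was called by edgeR, against 0.303% of all transcripts. For MGAM the difference was -0.64 ± 0.23 (adjusted p = 0.335).

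FGF19 was not called by edgeR at any IMX-101 dose, and had 1.08, 1.01, 1.79 and 2.62 CPM at 20 mg/L and 1.35, 0.31, 0.539 and 1.62 CPM at 40 mg/L, against 2.01, 3.07, 2.86 and 2.83 CPM in the controls. At 20 mg/L the groups overlapped (-0.70 ± 0.51, adjusted p = 0.548). The 40 mg/L libraries, with 27 counts in all against 181 in the controls, lay below all controls (2.74-fold lower after scaling, 95% counting interval 1.82 to 4.27), with an adjusted p of 0.122 by edgeR and 0.0142 by DESeq2. Its slope of -0.51 ± 0.17 per step had an adjusted p of 0.0787 by edgeR.

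The absorptive enzymes and carriers showed smaller differences under IMX-101. MGAM averaged 883 ± 217 CPM at 40 mg/L and 1372 ± 347 CPM in controls (-0.61 ± 0.23, adjusted p = 0.143). SGLT1 averaged 595 ± 126 CPM at 40 mg/L and 675 ± 135 CPM in controls, and FABP2 2613 ± 501 and 2902 ± 408 CPM. At 10 mg/L SGLT1 had 490, 513, 451 and 531 CPM, against 568, 847, 720 and 566 CPM in the controls, with no overlap and no call (-0.44 ± 0.17, adjusted p = 0.363). Among the lists at 40 mg/L, the genes called apart from TM4SF20 were MTTP, which loads lipid onto lipoproteins, at 24.5 ± 6.30 CPM at 40 mg/L and 10.3 ± 1.57 CPM in controls (1.27 ± 0.19, adjusted p = 0.000823), galectin-4 (LGALS4), a lectin of the brush border, at 2096 ± 52.6 and 2396 ± 64.3 CPM (-0.17 ± 0.04, adjusted p = 0.0135), and peptide YY (PYY), at 81.0 ± 4.84 and 64.4 ± 8.57 CPM (0.35 ± 0.10, adjusted p = 0.0453, kept in 1 of the 8 fits without 1 library). The 3 lists that hold MTTP, LGALS4 and PYY had 11, 7 and 6 genes tested and 1 called each, with medians of 0.25, -0.10 and 0.08. None was called among the hydrolases (9 tested), transporters (10), transcription factors (9) and the FGF19 and bile acid axis (6). Beside these calls, 7.51% of all transcripts were called at this dose. Goblet markers ran from 1412 to 1644 CPM at 40 mg/L and from 2264 to 3197 CPM in controls, kidney tubule markers from 319 to 383 CPM and from 444 to 697 CPM, and liver markers from 7614 to 9837 CPM and from 5931 to 6444 CPM. Of these, edgeR called 3 of 6 goblet and 1 of 7 kidney tubule markers lower and 3 of 6 liver markers higher. The absorptive markers other than the 5 genes stood at 104% of control. The part of the goblet, kidney and liver sums in these changes was not tested.

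Over all 18 groups, unexposed tadpoles of the 4 experiments already differed in level, by 3.84-fold for MGAM (939 to 3602 CPM) and 2.20-fold for FABP2 (2613 to 5742 CPM), and by 1.42-fold to 1.77-fold for the other 3 genes. These controls belong to different experiments and were not tested against each other. At 3.4 mg/L TNT, MGAM averaged 1610 ± 324 CPM, above the control means of the other experiments. Those were 1448 ± 423 CPM for MeNQ, 1372 ± 347 CPM for IMX-101 and 939 ± 449 CPM for NQ. TNT controls had the highest mean of all groups for MGAM, SGLT1 and TM4SF20, NQ 30 mg/L for FABP2 (6477 ± 406 CPM) and NQ 750 mg/L for FGF19 (3.72 ± 0.42 CPM). The lowest means were at 3.4 mg/L TNT for FABP2, TM4SF20 and FGF19 and at 150 mg/L NQ for MGAM (445 ± 179 CPM) and SGLT1 (431 ± 118 CPM).

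When the 18 group means of a gene were put in order, few neighbours were further apart than their pooled SD. For SGLT1 none of the 17 neighbouring pairs was. MGAM had 3 such gaps, above and below TNT 1.5 mg/L and between IMX-101 40 mg/L and NQ 150 mg/L, and FABP2 had 4, of which 2 set the TNT 2.3 and 3.4 mg/L groups below the rest. TM4SF20 had 4 such gaps, with TNT controls above all other groups and TNT 3.4 mg/L below them, and between these NQ 3750 mg/L (92.5 ± 64.1 CPM), IMX-101 40 mg/L (88.6 ± 12.4 CPM) and TNT 1.5 mg/L (88.5 ± 26.5 CPM) could not be told apart in level. FGF19 had 2, below TNT controls and above TNT 3.4 mg/L.

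The 5 genes did not vary as 1 group from library to library. Likeness was taken as Pearson's r of log2(CPM + 1) over the 72 libraries after subtracting the mean of each exposure, as a description, since the libraries share depth, scaling and doses. MGAM and SGLT1 were the pair most alike (r = 0.74), followed by TM4SF20 and FGF19 (r = 0.64) and FABP2 and FGF19 (r = 0.61). MGAM had little likeness to FABP2 (r = 0.21) or TM4SF20 (r = 0.13). Villin 1 went with SGLT1 (r = 0.57) and MGAM (r = 0.54) but not with FABP2 (r = -0.07), TM4SF20 (r = -0.03) or FGF19 (r = 0.03). The other 2 gut markers compared differed from it. CDX2 had r = -0.15 with MGAM, -0.16 with SGLT1, 0.14 with FABP2, 0.33 with TM4SF20 and 0.15 with FGF19. For CDX1, r was positive with all 5 genes, from 0.27 (TM4SF20) to 0.40 (SGLT1).

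Among 7426 named transcripts with a mean of at least 1 CPM, those most like SGLT1 were a leukocyte elastase inhibitor (r = 0.85), ACE (r = 0.85) and ovochymase-2-like (r = 0.82). MGAM was most like protein disulfide isomerase family A member 2 (r = 0.83), Cel-prov protein (r = 0.82) and carbonic anhydrase 14-like (r = 0.82). FABP2 was most like cardiac troponin C (r = 0.77), thread biopolymer filament subunit gamma-like (r = 0.76) and small integral membrane protein 24 (r = 0.75). TM4SF20 was most like pulmonary surfactant-associated protein D-like (r = 0.86), inducible nitric oxide synthase (r = 0.83) and catalase-like (r = 0.78). FGF19 was most like cardiac troponin C (r = 0.69), interferon-induced very large GTPase 1-like (r = 0.68) and ficolin-2-like (r = 0.66).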

How the data were processed

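RNA-seq was analysed from 72 libraries in 18 groups. Per the submitters' processing notes, bcl2fastq 1.8.4 split the reads and Salmon (version not given in the sources used here) was used, and the authors deposited estimated counts per transcript, 1 column per run in 134 columns. The E-value of each transcript's protein match is in the deposited tables, per the file headers. Library preparation was stranded and poly-A selected, per the labels' protocols. Doses follow the sample labels, which differ from the series text for 3 doses. The sources used here name no reference transcriptome.

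Runs of a library were summed (62 libraries with 2 runs, 10 with 1). Counts were rounded and fitted with edgeR 4.0.16 in R 4.3.3, 1 model per exposure, with filterByExpr defaults, TMM scaling, the quasi-likelihood test and Benjamini-Hochberg adjustment. Standard errors are the change divided by the square root of F. The MeNQ and NQ responses were compared in 1 model of their 40 libraries. CPM used TMM totals over 72 libraries. Intervals of counts and of a count of 0 cover counting error only.

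The 5 genes, the lists, the markers and the tests were chosen with earlier results of these data known. All 5 genes are named in every comparison, with up to 4 called genes per list and exposure by smallest adjusted p and the 3 transcripts most like each gene, and a few listed genes that were not called or had a second role (villin 1, CDX1, FABP6, peptide YY under TNT) were named after their values were seen. Alternatives were DESeq2 1.42.0 (Wald test or size factors), no filter, the replicate letter as a block, only the 8 libraries compared, the deepest run, counts summed by name, log10 dose and each library left out. The lane term and IMX-101 40 against 20 mg/L were added after seeing the data. A sixth transcript covered by the naming rule, and the list built around it, are not reported here. The edgeR step was run on counts simulated with spreads that edgeR had estimated, so that run cannot test its model.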

Additional observations from a re-analysis of the deposited data

Results flagged for a closer look

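In 4 of the 90 sets of 4 libraries (5 genes in 18 groups), 1 library was flagged as far from the other 3, about the share that chance gives, which is 1 in 20. SGLT1 had 548 CPM in library A of MeNQ 851 mg/L, with the others at 822 to 837 CPM. FABP2 had 1654 CPM in library C of TNT 2.3 mg/L, with the others at 2153 to 2221 CPM. FGF19 had 1.00 CPM in library D of NQ 150 mg/L, with the others at 3.08 to 3.32 CPM, and 0.288 CPM in library A of TNT 3.4 mg/L, where the other 3 had no counts. With those 3 at 0, any count in library A gives this last flag. Given the floor of their counts, they cannot be set apart from library A.

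The responses of TM4SF20 to MeNQ and to NQ differed at 36 mmol/L by 1.66 on the log2 scale in a test of the difference itself. That call held in 4 of the 16 fits without 1 library, and MeNQ and NQ were given in separate experiments.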

How the results depend on the processing

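The number of the 5 genes called kept within 1.5 times of its value under all alternatives run at the 3 TNT doses and the TNT slope, at NQ 30, 150 and 750 mg/L, at MeNQ 34, 170 and 851 mg/L and its slope, at IMX-101 20 mg/L and at 0.3, 1.4 and 7.2 mmol/L. With only the 8 libraries compared, it was 0 in place of 2 at NQ 3750 mg/L and 0 in place of 1 at IMX-101 10 mg/L, and 3 in place of 2 at TNT 2.3 mg/L, with FGF19 added. DESeq2 called 2 in place of 1 for the NQ slope, IMX-101 40 mg/L, the IMX-101 slope and the difference at 36 mmol/L, and 1 in place of 0 at MeNQ 4225 mg/L. The NQ slope had 0 with the lane term and 0 with log10 dose. Without 1 library the counts ran from 1 to 2 at NQ 3750 mg/L, from 0 to 1 for the NQ slope and IMX-101 10 mg/L, and from 0 to 2 at 36 mmol/L. SGLT1 at TNT 1.5 mg/L changed sign with the lane term, to 0.0026 from -0.11, neither called. In these cases the cause was not tested. Libraries that share a letter (A to D) had low correlations (-0.059 to 0.151). In NQ, 8 of 16 exposed libraries were most like the control of their own letter, against 5 of 16 in MeNQ, 3 of 12 in TNT and 0 of 12 in IMX-101. With the replicate block the counts were as without it, 5 at TNT 3.4 mg/L. Of 90 group means, 2 moved by over 1 SD with unscaled totals, MGAM at TNT 1.5 mg/L and FABP2 at NQ 30 mg/L. Of 67 uncalled changes not printed one by one, 28 changed sign in some fit, the largest of these at 0.23. Depth limits FGF19 most, at 3 to 181 counts per group.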
